A study of Homo sapiens with 3 samples.

Results

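The genes described here were 9 members of the cellular defence against oxidants and free iron: NQO1, TXNRD1, TXN, GCLM, SRXN1, HMOX1, FTH1, FTL and GPX4. They were taken by name, without use of their measured values, from the 33538 genes of the count matrices. All 9 were found in both libraries. They were followed through 5 populations of HCT116, a human colorectal cancer line whose genotype label is p53plus, by droplet sequencing of the 3′ ends of transcripts in single cells.

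Mix1 was a library of irradiated cells only (8 Gy), pooled from 4 sets of giant cells (isolation at day 5 or 8, culture to day 10 or 11) that cannot be separated within it. Mix2 pooled 10000 irradiated cells prepared in that way (IR, antibody hashtag tag8), 1000 repopulated cells (R, tag7), which had regrown after irradiation, and 1000 non-irradiated cells (NC, tag6). Strong IR denotes the 2216 cells with at least 3160 tag8 counts, and weak IR the 6322 cells with at least 500 but fewer than 3160. R denotes the 633 cells with at least 104 tag7 counts, Mix1 its 15630 cells, and NC the 810 cells with at least 374 tag6 counts. In Mix2 the own tag of a cell made up at least 80% of its tag counts, and all cells had at least 200 genes and under 10% mitochondrial UMIs (unique molecular identifiers, each counted as 1 transcript molecule). Whether all weakly tagged cells were irradiated was not tested, so weak IR names cells by their tag only. With 1 sample for each population, differences could not be set against replicates and were not tested. Intervals are exact 95% intervals of counting error only.

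NRF2 is a transcription factor that KEAP1 holds down in unstressed cells. Oxidants and electrophiles release it, and it then binds antioxidant response elements in front of genes for quinone reduction (NQO1), thioredoxin reduction (TXNRD1, TXN, SRXN1), glutathione synthesis (GCLM), heme breakdown (HMOX1) and iron storage (FTH1, FTL). Ferritin, a shell of FTH1 and FTL chains, keeps iron out of the reactions that form radicals, and GPX4 reduces lipid peroxides, whose build-up with free iron kills cells by ferroptosis. Ionizing radiation forms reactive oxygen species in cells.

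Regulatory sequence was available from RefSeq (GRCh38.p14) for 7 members, in 10 windows that reach from 250 bases before to 50 bases after a transcription start. HMOX1 and FTH1 had no entry. The core of the antioxidant response element, TGACNNNGC on either strand, occurred in 3 of the 10 windows and in 2 of the 7 genes, TXNRD1 and GCLM. Among all 35116 windows it occurred in 13.3%, and in 16.1% of all genes with a window. A match therefore describes these letters only, and binding was not tested. Sequence more than 250 bases before a start was not searched. The AP-1 motif TGANTCA, which can overlap the element, occurred in 0 of the 10 windows and in 7.71% of all windows. The matched stretches are shown because both genes were lower in the tag8 cells with most hashtag counts than in those with fewest. NQO1, which had no match in its window, was lower there as well. They are written 5′ to 3′ with the core in capitals. The stretch at the first TXNRD1 start is chr12:104215620-104215688 (plus strand, core at position -99), that at its second start, inside the gene, is chr12:104286919-104286948 (plus strand, core read on the opposite strand), and that of GCLM is chr1:93909456-93909524 (minus strand, core read on the opposite strand of the gene). A further match at the first TXNRD1 start, at position -8 on the opposite strand, is not shown.
TXNRD1, first start: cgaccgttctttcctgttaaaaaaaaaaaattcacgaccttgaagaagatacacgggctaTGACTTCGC
TXNRD1, second start: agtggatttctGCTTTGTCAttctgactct
GCLM: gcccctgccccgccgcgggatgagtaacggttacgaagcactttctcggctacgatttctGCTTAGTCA

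A different element governs ferritin after transcription. The messengers of both ferritin chains carry an iron-responsive element near the 5′ end, a hairpin that iron regulatory proteins hold when iron is scarce, so that translation stops while the transcript remains. A stretch of FTL that holds the loop of this hairpin, chr19:48965328-48965357 on the plus strand, is shown with the loop in capitals (CAGTGN, searched on the transcript strand). The same letters occurred in 32.1% of all windows. Protein was not measured, and the values below are transcript counts only.
FTL: ggtctgtctcttgcttcaaCAGTGTttgga

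All 9 members are protein-coding genes on different chromosomes, apart from FTL (chr19:48965309-48966879) and GPX4 (chr19:1103982-1106791). FTH1 lies at chr11:61959718-61967634, NQO1 at chr16:69706996-69726668, GCLM at chr1:93885199-93909456 and HMOX1 at chr22:35380361-35394214 (GRCh38, GENCODE 44). TXNRD1 lies at chr12:104215779-104350307, TXN at chr9:110243810-110256507 and SRXN1 at chr20:646615-653200. FTH1, FTL and TXN have processed pseudogene copies elsewhere in the genome, and how reads were divided between a gene and its copies was not tested.

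Cell filters left 15630 of 17019 barcodes in Mix1 and 11652 of 13888 in Mix2, and 59 barcodes occurred in both libraries. Median UMIs per cell were 11862 in strong IR, 7216 in weak IR, 6933 in R, 8996 in Mix1 and 7161 in NC, over totals of 4731705 to 150680612 UMIs. Levels are given as counts per 1000000 UMIs of the summed cells (CPM). The median mitochondrial share was 5.65% in strong IR, 6.49% in weak IR, 7.16% in R, 3.41% in Mix1 and 6.003% in NC. CDKN1A, the p53 target that arrests the cycle, stood at 918 CPM in strong IR, 265 in weak IR, 255 in R, 630 in Mix1 and 180 in NC. MKI67, a marker of cycling cells, ran the other way, with 126 CPM in strong IR, 288 in weak IR, 317 in R, 164 in Mix1 and 334 in NC. Of 6 epithelial markers 5 reached 10 CPM in every population, summing to between 3776 and 5930 CPM, while no immune, fibroblast, endothelial or erythroid marker did. What part these differences in depth, mitochondrial share and cell cycle have in the values below was not tested.

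The 9 genes together took 2.73% of all UMIs in strong IR, 1.58% in weak IR, 1.38% in R, 2.73% in Mix1 and 1.40% in NC. Most of the difference was in ferritin transcripts. A gene was called higher or lower at a CPM ratio of at least 1.5 or at most 0.667 with an interval that excluded 1, if it reached 10 CPM in either population. By this limit 8 of the 9 members could be called, SRXN1 being below 10 CPM everywhere. In strong IR against NC, 1 of 8 was higher (FTH1), beside 9.92% of all 7722 genes measured, and 1 was lower (GCLM), beside 15.4% of all genes. In weak IR against NC none of the 8 was higher and none lower, where 0.709% of all genes were higher and 0.481% lower. In R against NC none was higher, beside 1.42% of all genes, and 1 was lower (GCLM), beside 1.77%. In Mix1 against NC 3 of 8 were higher (HMOX1, FTH1 and FTL), beside 6.97% of all genes, and none was lower, beside 10.0%. Since NC is shared by the 4 comparisons they are not independent of each other. Median log2 ratios over the 9 members were 0.03, 0.07, -0.17 and 0.32 in strong IR, weak IR, R and Mix1, against medians of -0.11, -0.03, -0.04 and -0.08 over all genes measured. The members therefore did not move as a block, and they are described one by one.

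**Figure D1:**
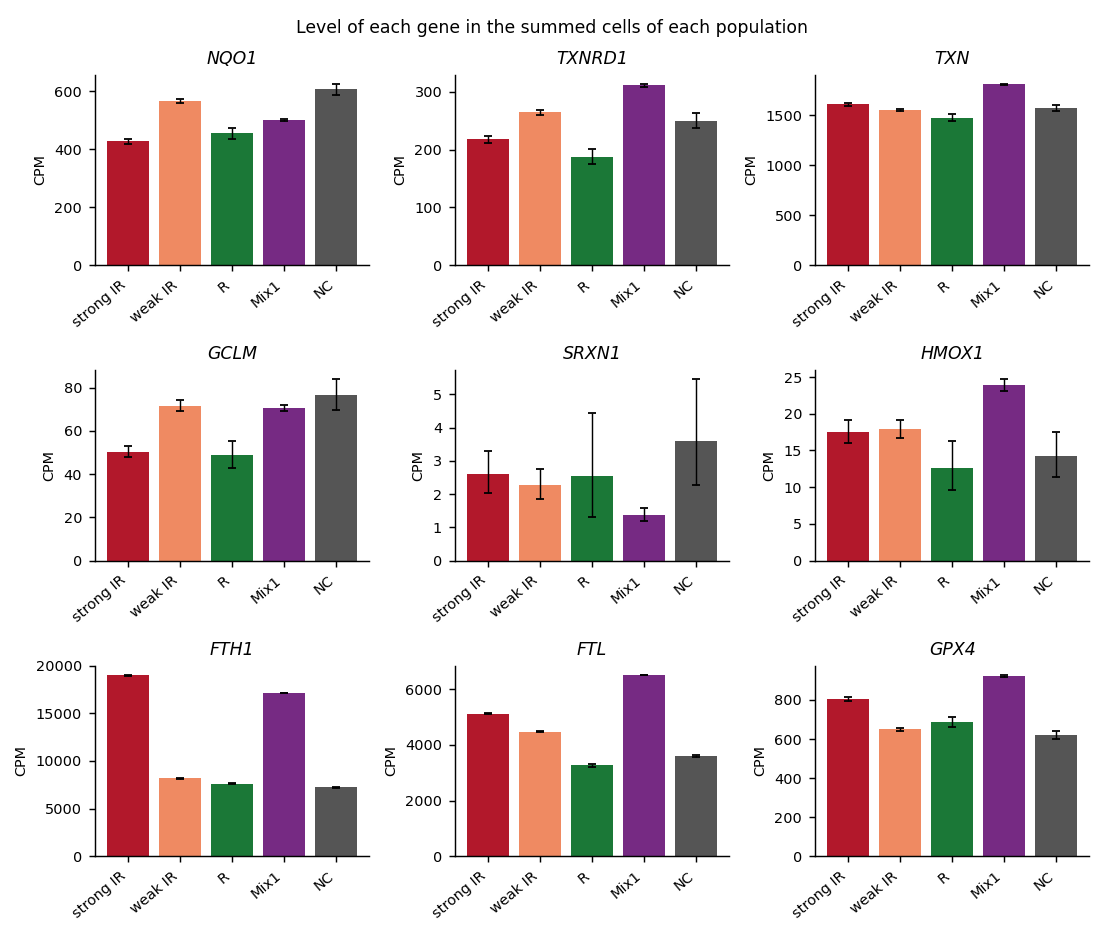
Level of each of the 9 genes (CPM of summed cells, linear axis from 0) in strong IR, weak IR, R, Mix1 and NC, with exact 95% intervals of counting error as bars. FTH1 stands at 19023 CPM in strong IR and 17123 CPM in Mix1, against 7225 CPM in NC, while NQO1 and GCLM are highest in NC.

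FTH1, the ferritin heavy chain that oxidizes iron for storage, was the member that differed most. It had 19023 CPM in strong IR, 8176 CPM in weak IR, 7625 CPM in R and 17123 CPM in Mix1, against 7225 CPM in NC. The ratio to NC was 2.63 (2.61 to 2.66) in strong IR and 2.37 in Mix1, but 1.13 in weak IR and 1.06 in R. Strong IR stood 2.33-fold above weak IR, which carried less of the same tag. All 4 neighbours in the order strong IR, Mix1, weak IR, R, NC were separated by their counting intervals, although weak IR, R and NC spanned only 1.13-fold. Counted per cell, FTH1 averaged 233 UMIs in strong IR, 60.8 in weak IR, 57.0 in R and 165 in Mix1, against 54.4 in NC. The strong IR ratio stayed above 1.5 in all 17 alternatives, with a lowest value of 1.67 when the tag count limit was dropped, which by construction merges strong with weak IR in 9605 cells. Without the cells of 10000 or more tag8 counts it was 2.03. With FTH1 highest in strong IR, CDKN1A was highest and MKI67 lowest there. Droplets without cells contained FTH1 at 8415 CPM, closer to the low populations, and subtracting an assumed 10% of this background gave a ratio of 2.85.

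FTL, the ferritin light chain that helps iron to form a mineral core, followed a different order. It had 5121 CPM in strong IR, 4476 CPM in weak IR, 3264 CPM in R and 6512 CPM in Mix1, against 3600 CPM in NC. Mix1 was the highest population for FTL and R the lowest, and all neighbours in the order were separated by counting error. The ratio to NC was 1.81 in Mix1, which was called, and 1.42 in strong IR, 1.24 in weak IR and 0.907 in R, which were not. In strong IR the value lay just under the limit and was called in 3 of 17 alternatives, including TMM scaling (1.51). Weak IR and R, which were alike in FTH1, differed 1.37-fold in FTL. Library and treatment cannot be told apart where Mix1 is set against NC.

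GPX4, a selenoprotein that reduces lipid peroxides in membranes, was higher in the populations with high ferritin, by less than the limit. It had 805 CPM in strong IR, 649 CPM in weak IR, 687 CPM in R and 925 CPM in Mix1, against 619 CPM in NC. NC was the lowest of the 5, and all neighbours were separated by counting error. The ratio to NC was 1.30 (1.26 to 1.35) in strong IR, 1.05 in weak IR, 1.11 in R and 1.49 in Mix1. None of these was called. The Mix1 value lay at the limit itself and was called in 6 of 14 alternatives.

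NQO1, the quinone reductase that is the classical NRF2 target, was highest in NC. It had 427 CPM in strong IR, 565 CPM in weak IR, 454 CPM in R and 501 CPM in Mix1, against 606 CPM in NC. The ratio to NC was 0.704 (0.679 to 0.731) in strong IR, 0.933 in weak IR, 0.750 in R and 0.827 in Mix1, and none passed the limit. Every interval lay below 1, and strong IR and R, the lowest, differed by 1.06-fold with an interval that excluded 1. In strong IR, NQO1 was called lower in 2 of 17 alternatives, among them the limit of under 5% mitochondrial UMIs (0.634).

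GCLM, the modifier subunit of the enzyme that starts glutathione synthesis, was the only member called lower. It had 50.4 CPM in strong IR, 71.7 CPM in weak IR, 48.8 CPM in R and 70.5 CPM in Mix1, against 76.7 CPM in NC. Thus strong IR and R formed a low pair that counting error did not separate, while weak IR, Mix1 and NC formed a high set whose neighbours were not separated either. The ratio to NC was 0.657 (0.591 to 0.732) in strong IR and 0.637 (0.542 to 0.747) in R, against 0.935 in weak IR and 0.919 in Mix1. Both called values lay close to the limit. The strong IR call was lost in 6 of 17 alternatives: 0.672 without irradiated cells that also carried another tag, 0.686 without mitochondrial and ribosomal genes in the total, 0.696 with TMM scaling, 0.729 without the cells of 10000 or more tag8 counts, 0.833 without a tag count limit, and under a limit of 2-fold. The R call was lost in 3 of 15, among them thinning of each cell to 3000 UMIs (0.671) and the limit of under 5% mitochondrial UMIs (0.723, with 31 R cells left, where NQO1 was called lower instead at 0.521). All of these values were below 1. As to cells, GCLM was detected in 41.6% of strong IR, 37.1% of weak IR, 29.5% of R, 40.9% of Mix1 and 41.6% of NC cells at full depth. After thinning to 3000 UMIs the shares were 12.9% of strong IR, 17.9% of weak IR, 15.8% of R, 19.0% of Mix1 and 22.3% of NC cells. After thinning to 5000 UMIs they were 20.4% of strong IR, 29.1% of weak IR, 20.1% of R, 29.7% of Mix1 and 30.2% of NC cells. At both depths the intervals of strong IR and R overlapped, and that of strong IR lay below that of NC. Thinning to 3000 UMIs left out 29, 542, 19, 3626 and 9 shallower cells in these populations, in the same order.

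**Figure D2:**
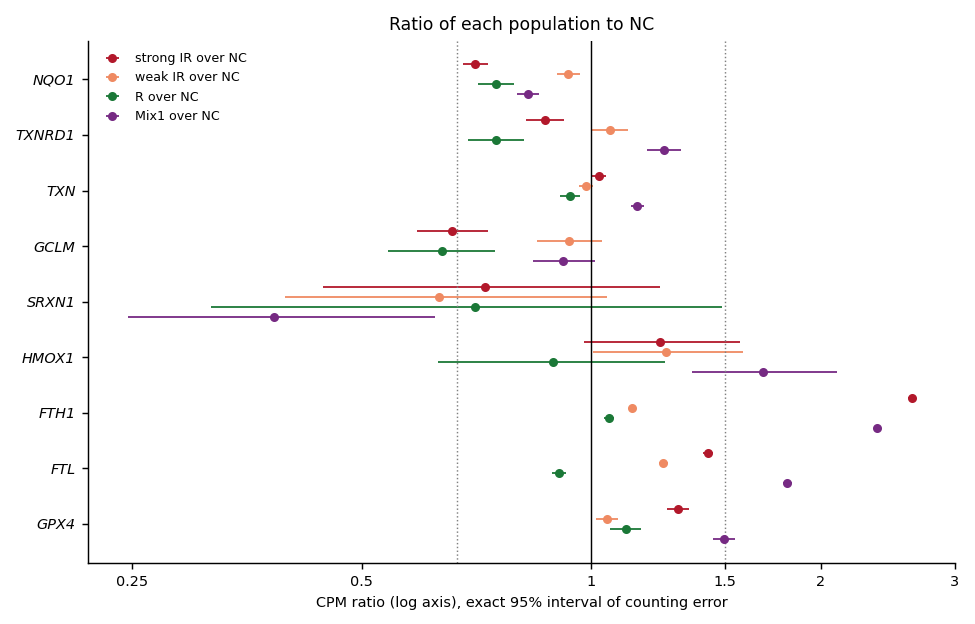
CPM ratio of strong IR, weak IR, R and Mix1 to NC for each gene on a log axis, with exact 95% intervals of counting error; dotted lines mark the limits of 1.5 and 0.667. FTH1 in strong IR (2.63) and Mix1 (2.37) lies farthest right, and GCLM in strong IR (0.657) and R (0.637) lies left of the lower limit.

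TXN encodes thioredoxin, the small protein that returns oxidized cysteines to their reduced form. It had 1612 CPM in strong IR, 1549 CPM in weak IR, 1476 CPM in R and 1810 CPM in Mix1, against 1574 CPM in NC. NC and weak IR were not separated by counting error, and all 4 ratios to NC lay between 0.938 and 1.15. In strong IR the ratio of 1.02 was not stable in direction, being 0.921 without the cells of 10000 or more tag8 counts and below 1 in 4 of 17 alternatives. This summed level hid a wide spread between cells, as described below.

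TXNRD1, the selenoprotein that reduces thioredoxin with NADPH, had 217 CPM in strong IR, 265 CPM in weak IR, 187 CPM in R and 311 CPM in Mix1, against 250 CPM in NC. Mix1 was the highest and R the lowest population, and all neighbours in the order were separated by counting error. The ratio to NC was 0.870 in strong IR, 1.06 in weak IR, 0.750 in R and 1.245 in Mix1, and none passed the limit. SRXN1, sulfiredoxin, which repairs overoxidized peroxiredoxins, was near the limit of detection. It had 2.62 CPM in strong IR, 2.28 CPM in weak IR, 2.54 CPM in R and 1.38 CPM in Mix1, against 3.60 CPM in NC, from 71, 107, 12, 208 and 22 UMIs. Apart from Mix1, which was below weak IR, no neighbours were separated. After thinning, SRXN1 was detected in at most 0.69% of the cells of any population, and in 3.11% of strong IR and 2.47% of NC cells at full depth. Droplets without cells had 1.76 CPM, so no order is read from this gene.

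HMOX1, heme oxygenase 1, which splits heme and sets its iron free, was also rare. It had 17.5 CPM in strong IR, 17.9 CPM in weak IR, 12.7 CPM in R and 23.9 CPM in Mix1, against 14.3 CPM in NC. Only Mix1 was separated from its neighbour, and its ratio to NC was 1.68 (1.36 to 2.10). The ratio was 1.23 (0.978 to 1.57) in strong IR, 1.254 in weak IR and 0.890 in R. Droplets of Mix2 without cells had 29.9 CPM, above the level of every population, so the part of free RNA in the HMOX1 counts is not known, and no such droplets were used for Mix1. After thinning, 5.03% of strong IR, 4.65% of weak IR, 2.28% of R, 6.03% of Mix1 and 3.75% of NC cells held an HMOX1 UMI, while at full depth the shares were 16.7%, 10.4%, 9.32%, 15.8% and 9.75% in the same order. No cell type that should lack HMOX1 was in the libraries to set these shares against.

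The hashtag count itself was then used to divide the tag8 cells of Mix2 more finely, into 6 bins from 500 tag8 counts to 10000 or more. FTH1 increased at each of the 5 steps: 7624, 7942, 9049, 12188, 16661 and 26839 CPM, a 3.52-fold span, against 7225 CPM in NC. The rise did not extend to 1067 tag8 cells below 500 counts, which belong to no population and had a median of only 963 UMIs. These cells had FTH1 at 9205 CPM and CDKN1A at 470 CPM, both above every bin of weak IR. In the bin of 2000 to 3160 counts FTH1 was 9049 CPM, with an overlapping interval, and CDKN1A 336 CPM. GPX4 likewise increased at each step, with values of 617, 651, 670, 717, 744 and 935 CPM. FTL had 4283 CPM in the lowest and 5795 CPM in the highest bin, with 4 steps up and 1 down. In contrast, NQO1 had 565 CPM in the lowest and 375 CPM in the highest bin, TXNRD1 262 and 180 CPM, and GCLM 66.6 and 40.6 CPM, each with 4 steps down. For these 3 genes the 3 lowest values lay in the 3 bins of strong IR. TXN stayed between 1439 and 1568 CPM over the first 5 bins and stood at 1901 CPM in the highest. HMOX1 showed no trend, lying between 15.7 and 21.0 CPM. Along the same bins CDKN1A went up to 1085 CPM in the highest against 255 CPM in the lowest, and MKI67 was 59.5 CPM in the highest against 266 CPM in the lowest. The median depth was 5720 UMIs in the lowest bin, 13146 in the next to highest and 11081 in the highest. Tag count, cell cycle state and depth thus varied together, and their parts were not separated.

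**Figure D3:**
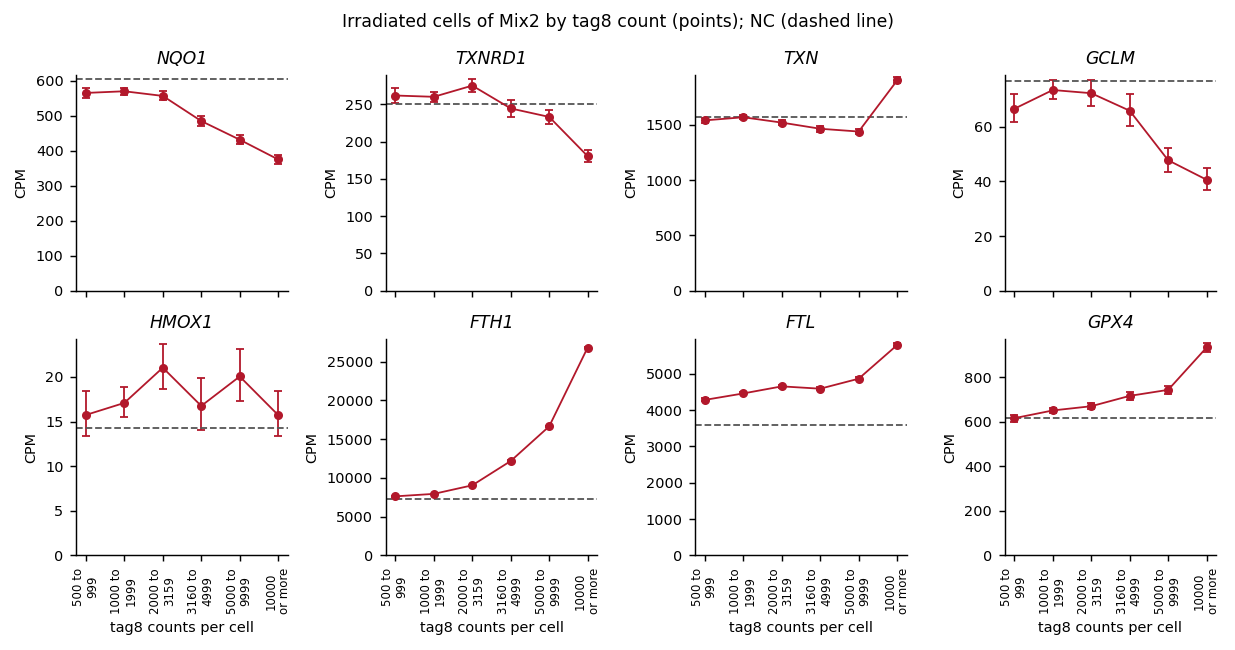
CPM of 8 genes (linear axis from 0) in tag8 cells of Mix2, split into 6 bins of tag8 count from low to high, with exact 95% intervals of counting error; the dashed line is NC. FTH1 reaches 26839 CPM and TXN 1901 CPM in the highest bin, whereas NQO1 falls to 375 CPM and GCLM to 40.6 CPM there.

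FTH1 was also compared by depth. When the cells of each population were divided by UMIs into 3 groups of nearly equal number, FTH1 had 23501, 19385 and 17072 CPM from the shallowest to the deepest group of strong IR, against 7964, 7453 and 6702 CPM in NC. Median UMIs in these groups were 7210, 11862 and 17048 in strong IR, against 5302, 7161 and 9784 in NC, so the shallowest group of strong IR and the middle group of NC had nearly the same depth. The lowest value of strong IR was above the highest of NC, and in both populations deeper cells had less FTH1 relative to all UMIs. In cells of 5000 to 15000 UMIs only, the ratio was 2.85. In Mix1, 5 such groups from shallow to deep had the lowest FTH1 level in the middle, with 18882, 17125, 14081, 15364 and 19363 CPM. CDKN1A was lowest in the middle group too, with 872, 635, 365, 497 and 804 CPM. FTL did not, since it had 5155 CPM in the shallowest group and 6068 to 6712 CPM in the others.

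The counts were also read cell by cell, after thinning each cell to 3000 UMIs. FTH1 had a median of 51 UMIs per cell in strong IR (10th to 90th percentile 17 to 117), 20 in weak IR (11 to 42), 21 in R (11.3 to 36.7) and 39 in Mix1 (18 to 92), against 20 in NC (12 to 33). The 25th percentile was 28 in strong IR and 25 in Mix1, against a 75th percentile of 26 in NC, so the lower part of the range was higher as well as the upper. The variance over the mean, which is 1 for counting noise alone, was 27.8 in strong IR, 10.7 in weak IR, 5.63 in R and 24.0 in Mix1, against 5.25 in NC. Within the bin of 10000 or more tag8 counts the FTH1 median was 79 UMIs, and its 10th percentile of 34.5 was above the 90th percentile of NC.

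TXN gave a second pattern of this kind. Its median was 4 UMIs in strong IR, weak IR, R and NC and 5 in Mix1, yet its variance over the mean was 3.04 in strong IR and 1.74 in Mix1, compared with 1.21 in weak IR, 1.22 in R and 1.21 in NC. Cells with 10 or more TXN UMIs of 3000 made up 9.47% of strong IR, 3.25% of weak IR, 2.77% of R and 8.36% of Mix1, against 3.75% of NC. Among tag8 cells of 10000 or more tag8 counts the share was 18.8%, and it was 4.10% in the bin below. The highest TXN count was 42 in strong IR and 14 in NC. NQO1 did not show this, its ratio of variance to mean being 1.60 in strong IR and 1.47 in NC. For FTL the ratio was 4.65 in strong IR, 4.54 in weak IR, 2.24 in R and 6.31 in Mix1, against 2.33 in NC. Its spread was thus wider in weak IR too.

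**Figure D4:**
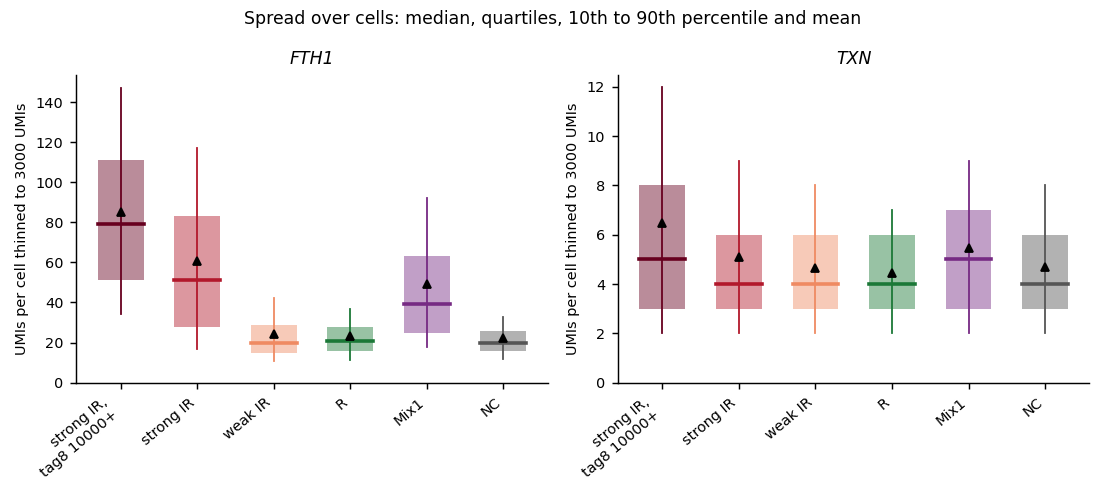
UMIs per cell of FTH1 and TXN after thinning each cell to 3000 UMIs (linear axis from 0), for cells of 10000 or more tag8 counts and for the 5 populations. Horizontal lines are medians, boxes are quartiles, whiskers run from the 10th to the 90th percentile and triangles are means; FTH1 medians are 79 and 51 in the highest tag8 bin and in strong IR, against 20 in NC, while the TXN median is 5 in the highest tag8 bin, against 4 in NC.

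Because FTH1 and CDKN1A moved together between populations, cells were also divided within each population by whether a CDKN1A UMI was found among 3000, a division chosen after the values had been seen. In strong IR, 1752 cells had one and 435 had none, and 416 of those with one had exactly 1. FTH1 stood at 22079 CPM in strong IR cells with CDKN1A and at 12881 CPM in those without, a ratio of 1.71 (1.69 to 1.74). The ratio was 1.24 in weak IR and 1.64 in Mix1, but 1.03 in R and 1.05 in NC, where CDKN1A was found in 306 of 801 cells. GCLM went the other way in strong IR (0.664, 0.514 to 0.865) and Mix1 (0.754), as did NQO1 with 0.733 in strong IR and 0.824 in Mix1. In weak IR both were closer to 1, with GCLM at 0.887 (0.787 to 0.999) and NQO1 at 0.957 (0.919 to 0.996). In R and NC the intervals of both genes included 1. FTL differed by at most 1.06-fold in any population, so it did not share this relation with its partner chain. MKI67 was 85.2 CPM in strong IR cells with CDKN1A and 234 CPM in those without, so cell cycle state differed between the sides of this division too.

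**Figure D5:**
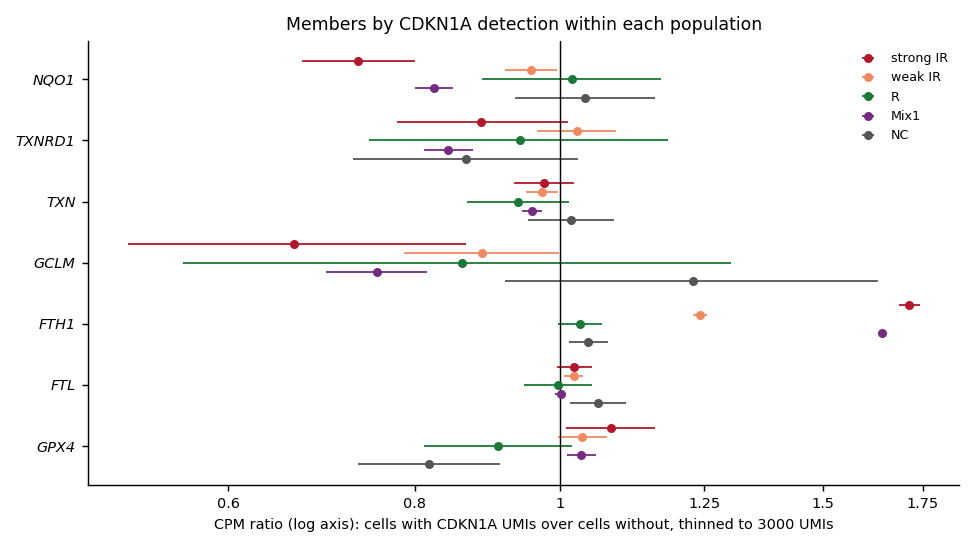
CPM ratio of cells with a CDKN1A UMI to cells without, within each population after thinning to 3000 UMIs, for 7 genes on a log axis with exact 95% intervals of counting error. FTH1 lies at 1.71 in strong IR and 1.64 in Mix1 but at 1.05 in NC, and GCLM and NQO1 lie below 1 in strong IR and Mix1.

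Likeness between members was described by the Pearson correlation of log2(CPM + 1) over 13 groups of cells (NC, R, the 6 tag8 bins and the 5 depth groups of Mix1), which share 2 libraries and their depth. Over all 36 pairs the highest values were 0.89 for FTH1 with GPX4, 0.87 for FTL with GPX4, 0.86 for TXN with GPX4 and 0.83 for HMOX1 with FTL, and then came 0.81 for TXNRD1 with GCLM and 0.80 for NQO1 with GCLM. FTH1 and NQO1 ran against each other, with -0.64. Among 2592 genes of at least 50 CPM on average, those most like FTH1 were C9orf16 (0.995), GUK1 (0.992) and COX7A2L (0.991), and those most like GPX4 were CAMTA1, RPL29 and SMDT1 (0.980 to 0.986). The genes most like NQO1 were FKBP3, C19orf48 and MRPL13 (0.934 to 0.955), and those most like GCLM were ARHGAP18, IMMT and AP1S1 (0.910 to 0.943). TXN was most like RPL22L1, ATP5PF and DMKN (0.940 to 0.969), TXNRD1 like RRP36, RTF2 and ENAH (0.925 to 0.943), and FTL like CDC26, SUDS3 and SDCCAG8 (0.922 to 0.934). From cell to cell within a population, FTH1 and FTL correlated at 0.33 in strong IR, 0.24 in weak IR, 0.12 in R and 0.27 in Mix1, against 0.19 in NC. FTH1 with GPX4 reached 0.19 in strong IR, and the highest value of any other pair was 0.154, for NQO1 with FTL in Mix1.

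Neighbouring genes of the same pathways, from lists made by function, gave a setting for the members. Of 20 other NRF2 targets measured in strong IR against NC, none was higher and 2 were lower, where 9.92% of all genes were higher and 15.4% lower, with a list median of -0.09 (log2) beside -0.11 over all genes. SLC7A11, which imports the cystine needed for glutathione, had 7.96 CPM in strong IR, 14.5 in weak IR, 9.93 in R and 13.6 in Mix1, against 25.7 CPM in NC, and was called lower in all 4 (ratio 0.310 in strong IR and 0.386 in R). In strong IR and R it was below 10 CPM and measured only through its NC level, so it could not have been called higher there. The same holds for any gene below 10 CPM in the population set against NC, and it partly sets the counts of lower genes. GCLC, the catalytic partner of GCLM, had 21.0 CPM in strong IR and 24.7 CPM in R, against 37.2 CPM in NC, at ratios of 0.565 and 0.665. Both subunits of that enzyme were thus called lower in strong IR and in R, GCLC in R at the limit itself. The GCLM call was lost in 6 of 17 alternatives in strong IR and 3 of 15 in R, and GCLC was not followed through the alternatives. In R, TRIM16 (0.639) was called lower as well, making 3 of 20, beside 1.77% of all genes. Among 12 genes of the glutathione system measured, 3 were lower in strong IR (SLC7A11 and GCLC again, and GPX8 at 0.499) and 1 was higher (MGST2 at 1.57), counts near the shares over all genes. Of 5 NRF2 regulators, none was higher and CUL3, the scaffold of the ligase that degrades NRF2, was lower in strong IR (0.632).

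Of 14 genes of iron uptake, sensing and release, 2 were higher in strong IR and none lower, beside 9.92% and 15.4% of all genes, so the count of higher genes was near the general share. They were LCN2, lipocalin that binds bacterial iron carriers, with 88.5 CPM in strong IR against 9.501 CPM in NC (9.32-fold), and STEAP3, an endosomal ferric reductase, with 14.1 CPM against 5.57 CPM (2.53-fold). Both were below 10 CPM in NC and were measured only through their strong IR level, so they could not have been called lower. The same limit applies to LCN2 in the other comparisons with NC. LCN2 was also called higher in R (4.11-fold), where FTH1 was near NC, in weak IR (2.23-fold) and in Mix1 (4.01-fold). Of 13 other genes of the thioredoxin and peroxiredoxin system, 1 was higher in strong IR (GLRX, 1.57-fold) and none lower. Of 9 genes of lipid peroxides and ferroptosis, 2 were higher (LPCAT3 and SAT1, both 1.52-fold) and 2 lower (SLC7A11 and DHODH at 0.594), while in R, SAT1 (1.61-fold) and SCD (1.51-fold) were higher. The limit given above for SLC7A11 applies to this count of lower genes too. The shares over all genes were 9.92% higher and 15.4% lower in strong IR and 1.42% higher in R. None of 3 genes of superoxide and peroxide removal was called. Of 5 genes of selenoprotein synthesis, EEFSEC (0.592) and SEPHS1 (0.650) were lower in strong IR. Of 10 other selenoproteins, SELENOM was higher in strong IR with 256 CPM against 82.7 CPM in NC (3.09-fold), and it was 1.56-fold higher in R. Of 8 genes in the matrix that link p53 to redox balance, 4 were measured in strong IR against NC. All 4 were higher: TP53I3 (5.96-fold), FDXR (2.19-fold), SESN2 (1.63-fold) and TIGAR (1.60-fold). The list median of 0.92 (log2) stood beside -0.11 over all genes. A gene below 10 CPM in NC is measured only where it is higher in the other population. Since 3 of the list were measured in weak IR, R and Mix1 against NC, this limit partly set the count and the list median. The lists were chosen with earlier results of these data known and share several genes.

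The repopulated cells were closer to NC in ferritin, TXN and GPX4 than in NQO1, TXNRD1 and GCLM. In R, FTH1 (1.06) and GPX4 (1.11) had intervals wholly above 1, and TXN (0.938) and FTL (0.907) had intervals wholly below it. NQO1 (0.750), TXNRD1 (0.750) and GCLM (0.637) lay below 1 by more. Set against weak IR, which shared their library and had nearly their depth, R cells were lower in GCLM and TXNRD1, as weak IR stood 1.47-fold and 1.41-fold above R. For these genes R was therefore nearer to strong IR than to weak IR or NC, with strong IR over R at 1.03 for GCLM, 1.16 for TXNRD1 and 0.940 for NQO1. For FTH1 it was not, since strong IR was 2.49-fold above R.

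Mix1 was compared with all tag8 cells of Mix2 (8538 cells with at least 500 tag8 counts), which carry the tag of the same preparation in the other library. FTH1 was 1.41-fold higher in Mix1, FTL 1.38-fold, HMOX1 1.35-fold, GPX4 1.31-fold and TXNRD1 1.26-fold. NQO1 (0.974) and GCLM (1.10) differed less. For SRXN1 the ratio was 0.575 from 208 UMIs in Mix1 and 178 in Mix2. The tag8 cells included the 6322 weak IR cells, and FTH1 was 1.11-fold higher in strong IR alone than in Mix1. The 2 libraries also differed in mitochondrial share, with medians of 3.41% in Mix1 and 6.34% in these cells of Mix2, and in Cell Ranger version. Library and the make-up of the tag8 cells therefore cannot be told apart in these ratios.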

How the data were processed

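HCT116 cells were profiled in 2 libraries with the 3′ kit of 10x Genomics (v3.1). The authors deposited UMI counts per gene and barcode, unnormalized, made with Cell Ranger (3.1.0 for Mix1 and 3.0.1 for Mix2 per the file headers) against GRCh38. An unfiltered matrix of Mix2, identical over the cell barcodes, gave 1467872 droplets of 1 to 100 UMIs as droplets without cells. Hashtag counts were 3 features of the Mix2 matrix. Per-sample columns left unused numbered 0. UMIs were summed per population, scaled to 1000000 and compared as ratios. Poisson, conditional binomial and Clopper-Pearson 95% intervals cover counting error, and cells are not replicates, so no test was made. No doublet caller was run. Droplets of Mix2 were limited only by the 80% tag rule, and those of Mix1, which has no hashtags, by no such rule. Leaving out irradiated cells with another tag over its limit kept 1823 of 2216 strong IR and 6312 of 6322 weak IR cells. The ratio and its interval were also run on simulated Poisson counts. These lack the spread between cells described above, so the run cannot show that the intervals cover it. All 9 genes are named, and of each list up to 3 genes with the largest and the smallest ratio among those called in strong IR or R. The genes, lists and comparisons were chosen with earlier results of these data known. Used were Python 3.11.15, numpy 2.4.6, scipy 1.17.1, pandas 2.3.3, matplotlib 3.10.9 and edgeR 4.0.16 (TMM factors). Alternatives (17) changed cell, tag and gene limits, scaling, depth, fold limit and background.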

Additional observations from a re-analysis of the deposited data

Results flagged for a closer look

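Barcodes above the mitochondrial limit were left out of every comparison, and some members were above the NC level in them, with counting intervals that did not overlap. FTH1 had 12011 CPM in the 1624 removed barcodes with the irradiated tag, 9568 CPM in 97 with the R tag, 14379 CPM in 1389 of Mix1 and 10550 CPM in 59 with the NC tag, against 7225 CPM in the NC cells kept. FTL had 3757 CPM in the removed irradiated barcodes of Mix2 and 4826 CPM in those of Mix1, against 3600 CPM in NC. Removed Mix1 barcodes also had TXNRD1 at 277 CPM, HMOX1 at 23.5 CPM and GPX4 at 667 CPM, against 250, 14.3 and 619 CPM in NC. Other members were lower there than in NC: the removed irradiated barcodes of Mix2 had GPX4 at 562 CPM, TXN at 1214 CPM and NQO1 at 402 CPM, against 619, 1574 and 606 CPM in NC. Removed Mix1 barcodes were also below the kept Mix1 cells, which had FTH1 at 17123 CPM and GPX4 at 925 CPM. The kept tag8 cells of Mix2 with at least 500 tag8 counts had FTH1 at 12146 CPM and FTL at 4712 CPM. Against these, the removed irradiated barcodes had nearly the same FTH1 level and less FTL. Removed barcodes with the R tag were above the kept R cells, which had FTH1 at 7625 CPM. CDKN1A stood at 892 CPM in the removed irradiated barcodes of Mix2, 867 CPM in those of Mix1 and 714 CPM in those with the NC tag, against 180 CPM in NC, and its part in these values was not tested.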

How the results depend on the processing

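No paired analysis was possible because each population came from 1 sample, and no replicate could be left out. FTH1 was above NC in all 17 alternatives for strong IR and all 14 for Mix1. Counts of members called changed as follows. Under 5% mitochondrial UMIs (172 NC and 31 R cells), 3 were higher in strong IR (FTH1, FTL, GPX4), 2 lower (NQO1, GCLM), and 1 higher in weak IR (HMOX1). The shares over all genes were then 11.5%, 27.2% and 4.22% in the same order, so the count of lower members was near the general share. GCLM was no longer called in strong IR, leaving 0 lower, without irradiated cells carrying another tag, without a tag count limit, with TMM scaling, without mitochondrial and ribosomal genes, and, chosen after seeing the data, without cells of 10000 or more tag8 counts. In these settings 1.84% to 13.7% of all genes were lower. Without a tag count limit 1 member (FTH1) was higher in weak IR, beside 2.88% of all genes, by construction, since strong and weak IR are then merged. TMM scaling gave 2 higher in strong IR (FTH1, FTL), beside 12.7% of all genes. Thinning to 3000 UMIs left 0 lower in R, beside 2.53% of all genes. No CPM minimum made SRXN1 the 1 lower member in Mix1, beside 5.04% of all genes. The fold limit below 1.5 gave 3 higher and 2 lower in strong IR, 1 higher in weak IR and 3 lower in R, and a 2-fold limit 0 lower in strong IR, 0 lower in R and 1 higher in Mix1 (FTH1). In Mix1, GPX4 was called higher in 6 of 14 alternatives, making 4 higher, and HMOX1 was not called in 2 of 14, among them a minimum of 50 CPM, which left 2 higher. The TXN ratio in strong IR turned to 0.999 under 20% mitochondrial UMIs, 0.978 without irradiated cells carrying another tag, 0.997 without a tag count limit and 0.921 without cells of 10000 or more tag8 counts, and the TXNRD1 ratio in weak IR to 0.993 without a tag count limit. Where no construction is named, the cause was not tested. Counting depth limited SRXN1 and HMOX1 most, with 12 and 60 UMIs in R.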
